A study of Macaca fascicularis with 2 samples.

Results

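The immediate early genes examined here were the AP-1 subunits *JUN*, *JUNB*, *FOS* and *FOSB*, the zinc finger factor *EGR1*, the ATF family member *ATF3*, the NR4A nuclear receptors *NR4A1*, *NR4A2* and *NR4A3*, and the phosphatase gene *DUSP1*. They were taken by name from a table of 21371 genes, and 8 of the 10 were analysed, while *JUNB* and *ATF3* were not analysed here. The cells came from the nucleus pulposus (NP), the gelatinous core of the intervertebral disc, and from articular cartilage (AC) of wild type male cynomolgus monkeys, 2 animals aged 3 years. By the study's account, 1 animal gave both NP and AC and the other gave AC alone, so all NP cells came from 1 animal. Their RNA was read by TAS-seq, a bead-based single-cell method, in 1 pooled library of 5723 cells in which a surface tag (A951, A952, A953 or A954) marked the tissue sample of each cell. The labels list 3 tissue samples for the 4 tags and do not pair tags with tissues or animals, so tags are given by name only and are not replicates. After removal of 42 doublets, 7 cells with no tag and 21 cells outside the limits on genes and mitochondrial reads, 5653 cells remained. Of these, 310 had 5 or more reads of both *KRT19* and *TBXT* and were called notochordal cells (NCs), namely 67 in A951, 236 in A952, 5 in A953 and 2 in A954. The remaining 5343 were called other cells, and they numbered 928, 889, 1372 and 2154 in the same order of tags.

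Immediate early genes are transcribed within minutes of a stimulus from factors that are already present in the cell, and their transcripts are short-lived. JUN and FOS proteins pair to form AP-1, which binds DNA at the regulatory regions of many genes, EGR1 binds GC-rich sites, and the NR4A proteins are orphan nuclear receptors that act without a known physiological ligand. DUSP1 dephosphorylates MAP kinases and so restrains the signal that induces the group. In cartilage and the disc, AP-1 is known for its role in responses to load and cytokines, and in single-cell work this gene group is known to respond also to tissue dissociation. The labels give a digestion of 3 h for NP and AC alike, while the study's text describes a longer one for AC. Levels before digestion were not measured, and the part of the digestion in the levels was not tested.

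The values are counts of sequencing reads without molecular identifiers, and levels are pooled reads per 1000000 reads of the group (rpm). NCs had a median of 186370 reads and 4061 detected genes per cell, and other cells had 199072 reads and 3819 genes. The median mitochondrial share was 1.35% in NCs and 1.46% in other cells. Because all cells belong to 1 library, no test between the cell groups was possible, and all intervals (95%, exact Clopper-Pearson for shares and exact Poisson for levels) cover counting error only.

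The markers of the NCs followed their label. Apart from *KRT19* and *TBXT*, which chose the cells, the cell adhesion gene *NCAM1* was at 506 rpm in NCs and 25.2 rpm in other cells, *CDH2* at 120 and 1.16 rpm, the galectin gene *LGALS3* at 7217 and 941 rpm, and the hedgehog ligand gene *SHH* at 98.7 and 0.847 rpm. *SHH* had a read in 10% or more of the cells only among NCs, where it was higher. The notochord factor *NOTO* had 1 read in all NCs. Of 9 chondrocyte markers, 7 were 2-fold or more lower in NCs, compared with 11.4% of 9964 genes. Among the 7 were *COL2A1*, the main collagen gene of cartilage (1269 against 20072 rpm), and the small proteoglycan gene *DCN* (169 against 4709 rpm). The collagen genes *COL9A1* (236 against 5200 rpm) and *COL11A1* (678 against 2788 rpm) were also among them. The aggrecan gene *ACAN* (14440 against 3968 rpm) and the factor *SOX9* (1120 against 346 rpm) were higher in NCs. Of 25 markers of immune, endothelial, mural, nerve, bone and dividing cells, 22 were measured, and they summed to 153 rpm in NCs and 125 rpm in other cells. *ACTA2*, a smooth muscle actin gene, was the most abundant of them in NCs (70.7 rpm), *IBSP*, a bone matrix gene, in other cells (30.0 rpm), and the B cell gene *MS4A1* was at 0 in NCs. Only 9 of these markers had a read in 10% or more of the cells of either group and were ranked. The highest log2 ratios among these 9 were those of *ACTA2* (3.44), the pericyte gene *RGS5* (1.49) and the leukocyte gene *PTPRC* (0.89). The lowest were those of *IBSP* (-5.70), the smooth muscle gene *MYH11* (-1.18) and the mural cell gene *PDGFRB* (-0.88). Markers below that limit were not ranked, although some of them differed more, in either direction, than *RGS5* or *MYH11* did. *IBSP* had a read in 10% or more of the cells only among other cells, where it was higher. The part of these genes in the results was not tested.

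All 8 immediate early genes had a higher pooled level in NCs than in other cells, and together they made up 7124 rpm in NCs and 1613 rpm in other cells. The log2 ratio of NCs to other cells ranged from 1.03 (*NR4A2*) to 2.58 (*JUN*) with a median of 1.88, whereas the median over 9964 genes with a read in 10% or more of the cells of either group was 0.30. All 8 were 2-fold or more higher, a size reached by 24.4% of the 9964 genes in the same direction and by 11.4% in the opposite direction. With the ratios centred on the median of all genes, *EGR1* and *NR4A2* came below 2-fold and 6 of 8 stayed above it. The share of all genes past 2-fold was not computed for centred ratios, and 24.4% belongs to the ratios before centring. By tag, the 8 genes summed to 8964 rpm in the NCs of A951 and 6942 rpm in those of A952, and to 2138 rpm in the 5 NCs of A953 and 194 rpm in the 2 NCs of A954. In other cells the sums lay closer together, at 1554, 1836, 1340 and 1723 rpm for A951 to A954. Within cells, the summed level had only weak relations to depth and quality. Spearman's rho over NCs was 0.09 with total reads, 0.09 with detected genes and -0.08 with the mitochondrial share, and over other cells it was 0.10, 0.12 and -0.12.

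**Figure D1:**
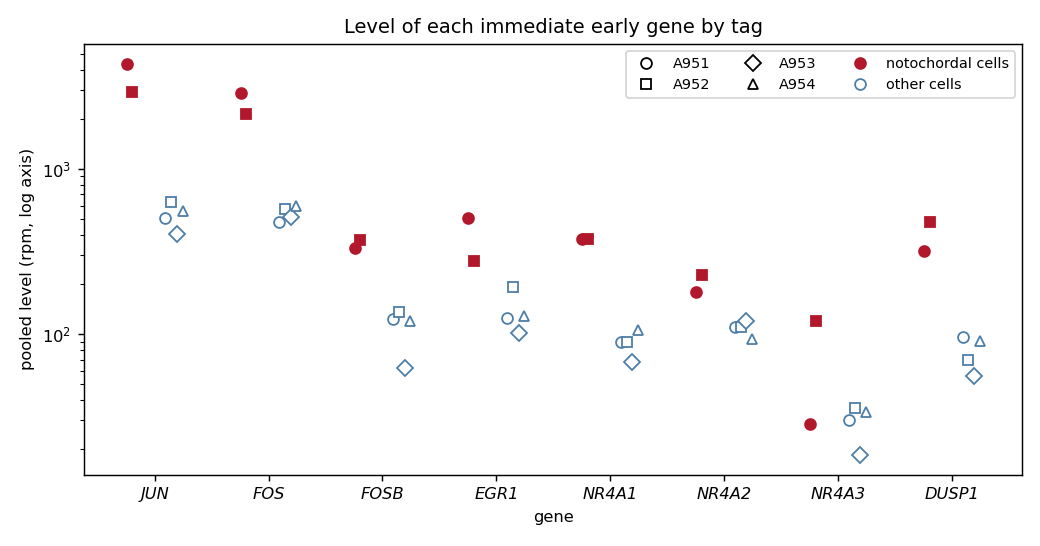
Pooled level of each immediate early gene (rpm, log axis) in NCs (filled red) and other cells (open blue), with 1 symbol per tag. NCs of A953 (5 cells) and A954 (2 cells) are left out; for each gene except *NR4A3* both red symbols lie above the 4 blue ones, and the red circle of *NR4A3* in A951 (28.5 rpm) lies among them.

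*JUN*, the central AP-1 subunit, had the largest ratio of pooled levels, followed by *DUSP1*. The order of these 2 genes was the reverse in A952 alone (log2 ratio 2.22 for *JUN* and 2.77 for *DUSP1*), without A951 (2.44 and 2.59) and in the difference of mean log2(rpm + 1) (3.31 and 3.46), and they were level after thinning (2.33 for both). Its pooled level was 3104 rpm (3091 to 3118) in NCs and 520 rpm (518 to 521) in other cells, which is 5.97-fold. By tag it was 4347 rpm in the NCs of A951 and 2931 rpm in those of A952. Other cells of A951 to A954 had 507, 630, 405 and 556 rpm, all below both values. Over single NCs the median was 809 rpm, with quartiles of 111 and 2796 rpm and a highest cell at 29973 rpm. Over other cells the median was 27.0 rpm and the upper quartile 233 rpm, but the highest cell reached 34054 rpm. The lower quartile of NCs thus exceeded the median of other cells, and the ranges overlapped.

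*FOS*, the partner of JUN in AP-1, was at 2237 rpm in NCs and 551 rpm in other cells (4.06-fold, log2 ratio 2.02). It was at 2873 and 2160 rpm in the NCs of A951 and A952 and between 474 and 594 rpm in the other cells of the 4 tags. The pooled level rested on few cells, since the 10% of NCs with the most reads held 72.2% of the *FOS* reads of NCs, and the 10% of other cells with the most held 92.2%. The median was 147 rpm over NCs and 18.6 rpm over other cells. For each *JUN* read there were 0.721 *FOS* reads in NCs and 1.06 in other cells, so the excess in NCs was smaller for *FOS* than for *JUN*.

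*FOSB*, a FOS paralog that also pairs with JUN proteins, was at 354 rpm in NCs and 108 rpm in other cells (3.29-fold). Its within-tag log2 ratios were alike, at 1.43 in A951 and 1.46 in A952. *EGR1* was at 314 and 130 rpm (2.42-fold). Its ratio depended on the tag. In A951 it was at 507 rpm in NCs and 124 rpm in other cells (log2 ratio 2.03), and in A952 at 277 and 192 rpm (log2 ratio 0.53), below 2-fold. This difference between tags was not tested.

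The NR4A receptors had lower ratios than *JUN*, and they differed among themselves. *NR4A1* was at 367 rpm in NCs and 91.1 rpm in other cells (4.02-fold), with log2 ratios of 2.08 in A951 and 2.07 in A952. *NR4A2* was at 215 and 105 rpm (2.04-fold), with log2 ratios of 0.70 in A951 and 1.06 in A952. Its shares of cells with a read were close in NCs and other cells. *NR4A3* was at 98.5 rpm (96.1 to 101) in NCs and 29.4 rpm (29.1 to 29.7) in other cells (3.35-fold). That ratio came from A952, where NCs had 120 rpm and other cells 35.5 rpm (log2 ratio 1.75). In A951 NCs had 28.5 rpm and other cells 30.0 rpm (log2 ratio -0.07, within its counting error of 0.156), and with A952 left out the pooled log2 ratio was -0.23.

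*DUSP1*, the feedback phosphatase, was at 434 rpm in NCs and 79.4 rpm in other cells (5.47-fold, log2 ratio 2.45). Its levels were 320 and 478 rpm in the NCs of A951 and A952. Other cells of A951 to A954 had 96.3, 69.9, 55.4 and 90.5 rpm, all below both. The median NC had 120 rpm of *DUSP1*, and the median other cell had 0. Within tags, 6 of 8 genes were 2-fold or more higher in NCs in A951 and 7 of 8 in A952, where 27% and 25% of all genes were. *NR4A2* and *NR4A3* were the exceptions in A951, and *EGR1* in A952.

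The shares of cells with any read were closer together than the levels. *JUN* had at least 1 read in 97.1% (94.6 to 98.7) of NCs and 93.4% (92.7 to 94.0) of other cells, and *FOS* in 92.6% and 89.7%. *NR4A2* was the only one of the 8 genes found in fewer NCs (57.7%) than other cells (59.8%), and the intervals overlapped. From 5 reads its order turned (36.5% and 34.1%), as it did with each cell thinned to 50000 reads (45.8% and 42.1%), again with overlapping intervals. Such shares hold many cells with very few reads. *APOE*, which the study lists among the NC markers and which has about as many reads in the library as *JUN* and *FOS* (900836, 867749 and 850015 reads), had 16 or more reads in 100% of NCs. It had 1 to 15 reads in 68.5% (67.2 to 69.7) of other cells and 16 or more in 10.2%. *JUN* had 1 to 15 reads in 58.4% and *FOS* in 66.1% of other cells, which is at or below the share for *APOE*. The origin of such low reads was not tested for any of these genes, and by choice they are not taken here as expression. For *KRT19* the share with 1 to 15 reads in other cells was 9.68%, and for *TBXT* 10.2%. Median depths were those given above.

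Counted from 16 reads, a limit chosen after the distribution of reads had been seen, the intervals of NCs and other cells did not overlap for 7 of the 8 genes, *NR4A2* being the exception. The same held, with the higher share in NCs, for 29.3% of the 9964 genes. Cells at or above this limit held between 94.9% and 99.9% of the reads of each gene. *JUN* reached it in 77.1% (72.0 to 81.7) of NCs and 34.9% (33.7 to 36.2) of other cells. *DUSP1* reached it in 53.9% (48.1 to 59.5) and 13.5% (12.6 to 14.4), and *FOS* in 51.6% (45.9 to 57.3) and 23.6% (22.4 to 24.7). For these 3 genes the intervals lay far apart. The shares were 41.6% and 19.4% for *FOSB*, 38.1% and 17.7% for *NR4A1*, 30.3% and 19.9% for *EGR1*, and 18.4% and 9.53% for *NR4A3*. The difference of *NR4A3* came from A952 (21.6% and 10.1%), while in A951 its shares were level (8.96% and 8.94%). Over all tags, *NR4A2* had 29.7% (24.6 to 35.1) and 28.3% (27.1 to 29.5), which overlapped. Within A952 the intervals likewise overlapped only for *NR4A2*. Within A951 they were apart only for *JUN*, *FOS* and *DUSP1*, and *NR4A2* had the lower share in NCs (19.4% against 27.4%). The share of all genes with intervals apart was computed over pooled tags only. The results within A951 and A952 are therefore not set against all genes. The median over the 8 genes of the difference in shares was 21.3 percentage points from 16 reads, compared with 7.77 points from 1 read. When each cell was thinned to 50000 reads, which left out 11 NCs and 196 other cells, it was 16.5 points from 1 read. Without A952, whose NCs were the majority, the difference from 1 read was 2.49 points, and the counting error of single genes had a median of 11.1 points.

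**Figure D2:**
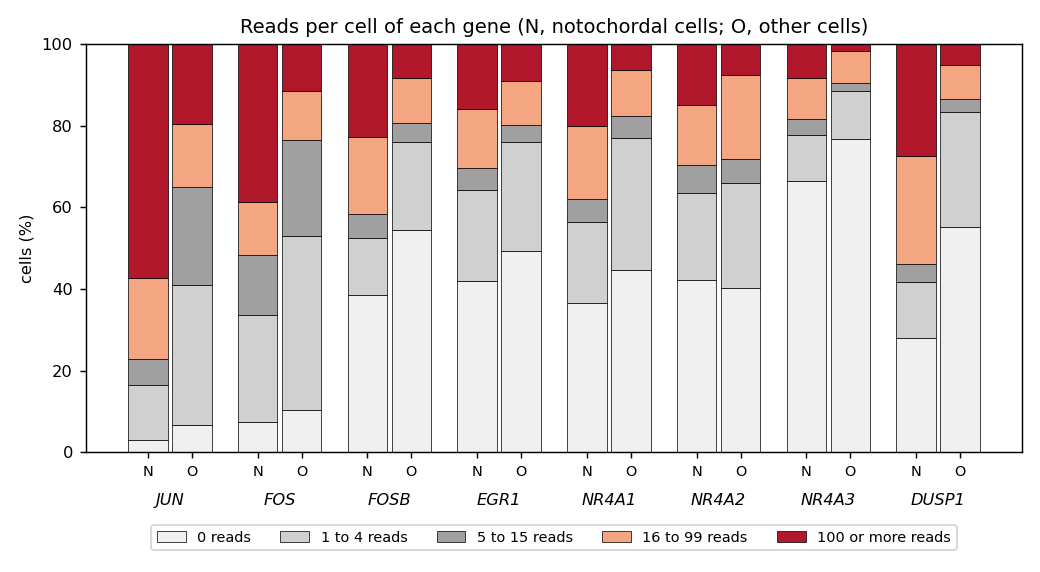
Share of cells (%) by number of reads per cell, for each gene in NCs (N, 310 cells) and other cells (O, 5343 cells). *JUN* had 100 or more reads in 57.4% of NCs and 19.6% of other cells, and *NR4A2* shows nearly equal bars for 0 reads.

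Several of the genes were often found in the same cell. From 16 reads, the median number of the 8 genes per cell was 3 in NCs and 1 in other cells. At least 5 genes were present in 30.3% (25.3 to 35.8) of NCs and 7.34% (6.65 to 8.07) of other cells, and all 8 in 2.26% (0.913 to 4.60) and 0.243% (0.130 to 0.416), which is 7 and 13 cells. None of the 8 was present in 9.03% (6.09 to 12.8) of NCs and in 27.4% (26.2 to 28.7) of other cells. NCs therefore held cells with none of the genes at this limit as well as cells with most of them.

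**Figure D3:**
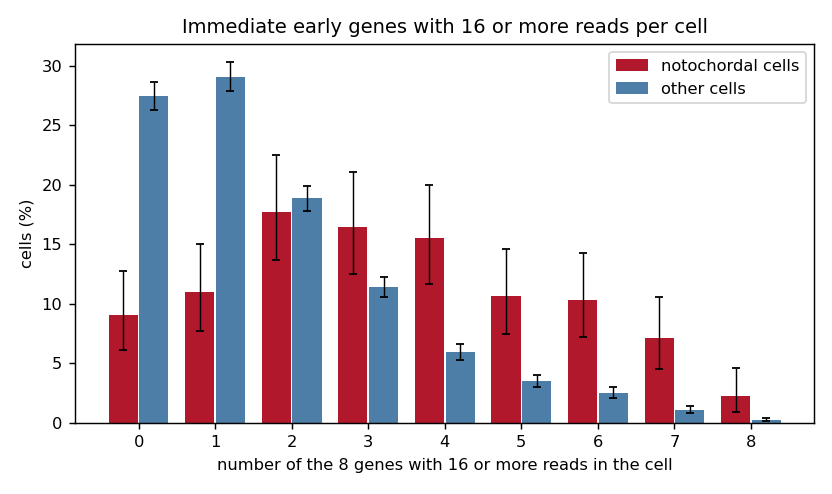
Share of cells (%) by how many of the 8 genes had 16 or more reads in the cell, with exact 95% binomial intervals as error bars (counting error only). The tallest bar of other cells is at 1 gene (29.1%) and that of NCs at 2 genes (17.7%).

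*JUN* and *FOS*, whose products form the AP-1 dimer, both had 16 or more reads in 43.5% of NCs and 13.6% of other cells. *JUN* alone reached the limit in 33.5% of NCs and *FOS* alone in 8.06%. In other cells these shares were 21.3% and 9.98%, and neither gene reached it in 55.1% of other cells and 14.8% of NCs. In both groups, cells with *JUN* alone thus outnumbered cells with *FOS* alone.

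For each of the 28 pairs of genes, co-detection was given as an odds ratio, the odds of finding 1 gene in cells with the other divided by the odds in cells without it. From 16 reads the median over the pairs was 3.25 in NCs and 2.38 in other cells. The highest odds ratio in NCs was 9.22 for *EGR1* with *NR4A1*, which 69 cells shared, followed by 7.19 for *JUN* with *EGR1*. Only 5 of the 94 NCs with *EGR1* at this limit lacked *JUN*. The lowest was 0.58 for *FOS* with *NR4A3*, which 7.42% of NCs shared while independence of the genes would give 9.49%, and *FOSB* with *NR4A3* had 0.94. In other cells all 28 were above 1, from 1.39 (*NR4A2* with *NR4A3*) to 4.02 (*JUN* with *FOSB*). Odds ratios of other gene pairs were not computed. The values from 16 reads were not thinned, and the part of sequencing depth in them was not tested. From 1 read the medians were 3.32 in NCs and 2.33 in other cells. The counting error of a single pair, on the natural log scale of the odds ratio, had a median of 0.57 in NCs and 0.13 in other cells. After thinning, which matched total reads only, the median odds ratios were 2.57 in NCs and 1.38 in other cells, with log-scale errors of 0.56 and 0.13. On the log scale, the change with thinning was within the error of a single pair in NCs. In other cells it was beyond that error, with co-detection from 1 read smaller after thinning.

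Spearman's rho between the levels of 2 genes was also computed over cells. The cells share 1 library and differ in depth, and the coefficients are descriptions. Over the 310 NCs the median of the 28 pairs was 0.31, compared with a median of 0.05 between the 8 genes and all other genes with a read in 10% or more of NCs. The highest were *JUN* with *EGR1* (0.55), *EGR1* with *NR4A1* (0.50) and *JUN* with *FOS* (0.48), although the odds ratio of the last pair from 16 reads was only 2.36. The lowest were *FOS* with *NR4A3* (-0.11) and *FOSB* with *NR4A3* (0.01). Among the AP-1 genes, *EGR1* and *DUSP1* the median of 10 pairs was 0.42, among the 3 NR4A genes it was 0.32, and between these sets the median of 15 pairs was 0.20. *EGR1* with *NR4A1* was the pair that stood highest between the sets. Within the NCs of A951 and A952, *JUN* with *EGR1* had 0.51 and 0.57, and *FOS* with *NR4A3* had -0.02 and -0.11. Over the 5343 other cells the coefficients were weak, from 0.05 to 0.26 with a median of 0.16, where the median to all other genes was 0.05. Reads of 1 to 15 per cell, not taken here as expression, also enter the coefficients. Such cells made up 58.4% (*JUN*) and 66.1% (*FOS*) of other cells, and 20.0% and 41.0% of NCs.

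**Figure D4:**
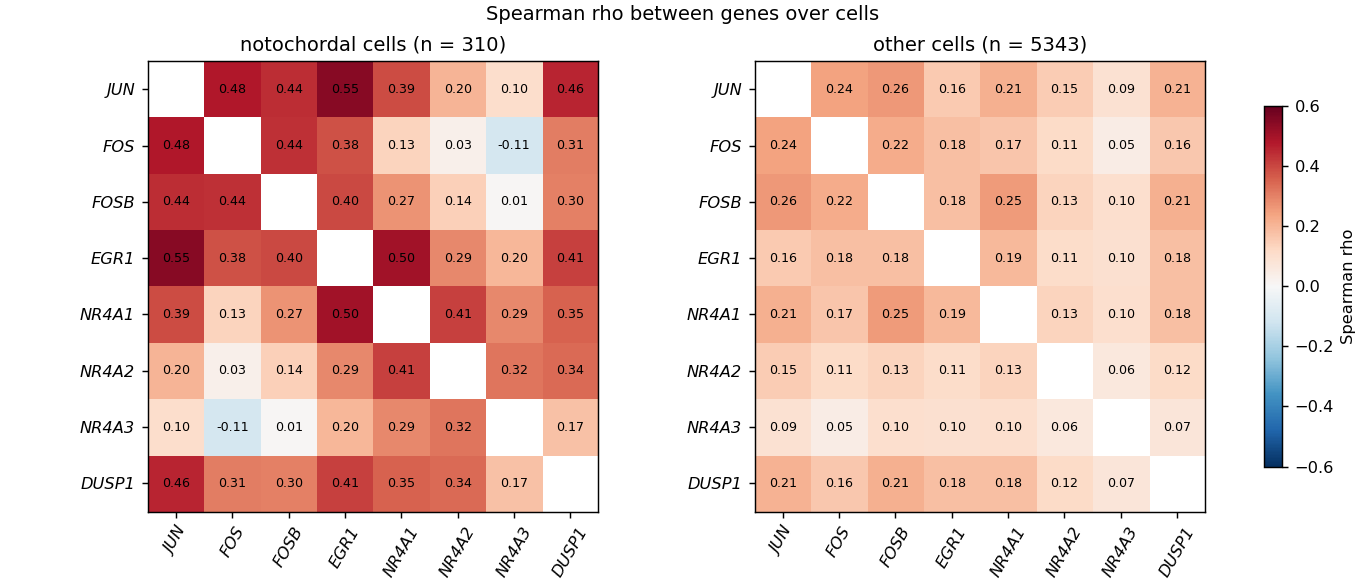
Spearman's rho between the levels of each pair of genes over 310 NCs (left) and 5343 other cells (right), on 1 color scale from -0.6 to 0.6. In NCs the values run from -0.11 to 0.55 and are lowest between *NR4A3* and *FOS* or *FOSB*, and in other cells from 0.05 to 0.26.

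The study describes NCs that express *SHH* and NCs that do not, and the immediate early genes were compared between the 72 NCs with 5 or more *SHH* reads and the 238 with fewer. The former had more reads per cell (median 226388 against 173339). *FOS* was at 422 rpm in NCs with *SHH* and 2941 rpm in those without, and *JUN* at 1119 and 3875 rpm. *NR4A3* had the opposite order, at 161 and 74.4 rpm, with 16 or more reads in 34.7% (23.9 to 46.9) and 13.4% (9.38 to 18.4) of cells. *JUN* had 16 or more reads in 84.7% (74.3 to 92.1) of NCs with *SHH* and 74.8% (68.8 to 80.2) of those without, so its lower level came with no lower share of cells. For *FOS* the share was lower with *SHH*, at 33.3% (22.7 to 45.4) against 57.1% (50.6 to 63.5) without. Most NCs with *SHH* carried A952, namely 62 against 9 in A951. Within A952, *FOS* was at 315 rpm with *SHH* and 3012 rpm without, *JUN* at 1069 and 3792 rpm, and *NR4A3* at 172 and 95.6 rpm. In A951, with only 9 such cells, the order was the same for these 3 genes, with *FOS* at 1724 and 3021 rpm, *JUN* at 1934 and 4657 rpm, and *NR4A3* at 124 and 16.3 rpm. The other 5 genes had lower levels in NCs with *SHH* than in those without, both pooled and within A952, as did 55.8% and 55.5% of all genes, but in A951 *FOSB* (354 and 330 rpm) and *NR4A2* (182 and 179 rpm) did not. Their shares of cells with 16 or more reads had overlapping intervals, and that of *NR4A2* was 31.9% with *SHH* and 29.0% without.

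Across the tags of other cells the genes varied less than between NCs and other cells pooled over tags. The log2 ratio of the highest to the lowest tag had a median of 0.72 over the 8 genes and of 0.42 over all genes. It exceeded the within-tag log2 ratio of NCs to other cells for *EGR1* in A952 (0.92 against 0.53) and *NR4A3* in A951 (0.95 against -0.07). *FOSB* was the only one of the 8 genes past 2-fold (2.19-fold, from 62.1 rpm in A953 to 136 rpm in A952), as were 9.13% of all genes. A953 was the lowest tag for 6 of the 8 genes, and *FOS* and *NR4A2* were the exceptions. It was also the lowest for 31% of all genes. A952 was the highest for *JUN*, *FOSB*, *EGR1* and *NR4A3*. The steadiest were *FOS* (1.25-fold) and *NR4A2* (1.28-fold).

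The other genes of the pathway went in both directions. Over all 9964 genes, 24.4% were 2-fold or more higher in NCs and 11.4% lower, and no list was tested against these shares. Of 13 further AP-1 and ATF subunits tested, 2 were 2-fold or more higher in NCs and 1 lower, with a median log2 ratio of 0.19. *FOSL2*, a FOS-related subunit, was at 199 rpm in NCs and 47.2 rpm in other cells (log2 ratio 2.08), and the small MAF genes *MAFK* and *MAFF* had log2 ratios of 1.06 and 0.90. The 1 lower gene was *BATF*, a dimer partner of JUN proteins in immune cells (0.711 against 5.57 rpm), which passed the limit of 10% of cells only through the other cells, where it was higher. Among the 12 subunits that passed in both groups, 2 were higher and 0 lower. *MAFG* (-0.66) and *ATF4*, an effector of the integrated stress response (-0.50), stayed within 2-fold.

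Of 30 other early response genes, 12 were 2-fold or more higher and 5 lower in NCs, with a median log2 ratio of 0.47. The shares over all genes were 24.4% higher and 11.4% lower. The highest were *KLF10*, a zinc finger factor induced by TGF-β (447 against 72.2 rpm, log2 ratio 2.63), the small GTPase gene *RHOB* (2.03) and the antiproliferative gene *BTG2* (1.99). The lowest were the matricellular genes *CCN2* (204 against 1410 rpm, log2 ratio -2.79) and *CCN1* (-1.42), and *IER3*, a regulator of apoptosis (-1.88). *CCN1* and *CCN2* are also known as targets of YAP signaling.

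Of 17 upstream factors, 3 were 2-fold or more higher and 1 lower, with a median of -0.04. For this list and those that follow, the shares over all genes were again 24.4% higher and 11.4% lower. *SRF*, which binds the serum response elements of *FOS* and *EGR1*, was at 320 rpm in NCs and 52.4 rpm in other cells (log2 ratio 2.61), its coactivator gene *MRTFB* had 1.72 and the kinase gene *RPS6KA5* 1.44. *ELK3*, a ternary complex factor that partners with SRF, was lower (80.9 against 357 rpm, log2 ratio -2.14), and *CRTC3* (-0.87) and *MRTFA* (-0.77) stayed within 2-fold. Of 13 further MAP kinase feedback genes tested, 4 were higher and 4 lower, with a median of -0.02. The phosphatase genes *DUSP4* (17.4 against 0.152 rpm, log2 ratio 6.84, with a read in 10.6% of NCs) and *DUSP8* (2.33) and the Sprouty-related gene *SPRED2* (1.12) were higher, and the inhibitors *SPRY1* (-2.85) and *SPRED1* (-2.79) and the G protein regulator *RGS2* (-1.94) were lower. *DUSP4* and *DUSP8* passed the limit of 10% of cells only through the NCs, where they were higher, and among the 11 genes that passed in both groups 2 were higher and 4 lower. Of 8 heat shock genes, 3 were higher and 0 lower, with a median of 0.55. These were the co-chaperone genes *DNAJB4* (2.23) and *DNAJB1* (1122 against 270 rpm, 2.05) and *HSP90AA1* (1.14), whereas *BAG3* (0.14), *HSP90AB1* (-0.33) and *HSPA5*, the chaperone of the endoplasmic reticulum (-0.60), stayed within 2-fold. The part of the heat shock genes in the higher level of the immediate early genes was not tested.

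**Figure D5:**
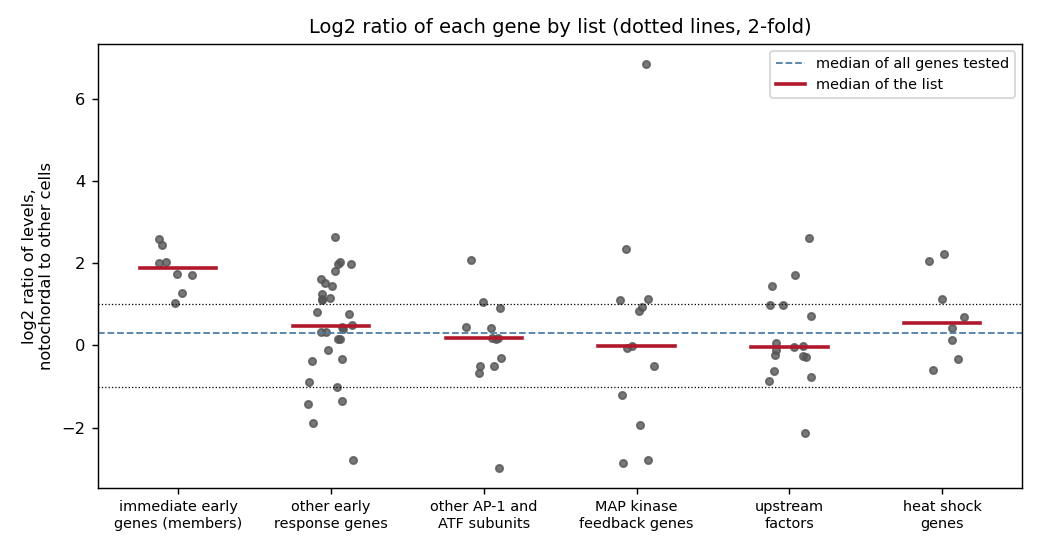
Log2 ratio of the pooled level in NCs to that in other cells for each tested gene (points), by gene list, with the list median (red bar), the median of all 9964 genes tested (dashed line, 0.30) and 2-fold limits (dotted lines). All 8 immediate early genes lie above the upper dotted line, and the other 5 lists drawn spread to both sides of 0.

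The genes whose levels followed the summed level of the 8 most closely over NCs were *ZFP36*, which encodes an RNA-binding protein that promotes mRNA decay (rho 0.46), the zinc finger factor *KLF4* (0.45), the stress-induced gene *GADD45B* (0.41), *DNAJB1* (0.38), the bromodomain gene *BRD2* (0.37), *TOB1* (0.35), *BTG2* (0.32), *ID2* (0.31), *TIPARP* (0.29) and *HSPH1* (0.29). Over 9720 genes, 95% of the coefficients in NCs lay between -0.11 and 0.14. Over other cells the closest were *ZFP36* (0.34), *GADD45B* (0.33), the transcriptional repressor *BHLHE40* (0.29), *KLF10* (0.29) and *CSRNP1* (0.28), followed by *DNAJB1*, *TOB1*, *NR1D1*, *SKIL* and *SERTAD1* (0.24 to 0.27). There, 95% of 9299 genes lay between -0.05 and 0.10. *ZFP36* and *KLF4* followed the group from cell to cell among NCs, yet their pooled levels were not 2-fold apart between NCs and other cells (571 against 718 rpm and 475 against 380 rpm). Of the genes used to choose the NCs, *KRT19* had a rho of 0.01 and *TBXT* one of 0.18 to the summed level over NCs, the latter above the range that holds 95% of genes.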

How the data were processed

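The authors mapped the reads to the genome of Macaca fascicularis using HISAT2 2.2.1, assigned them to genes with featureCounts 2.0.2 and velocyto, keeping reads that map to several genes, and deposited counts of reads per gene and cell without normalization. PCR copies remain, so 1 molecule can give many reads, and reads of related genes may be shared. The genome build is not given in the sources used here.

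Cells with 1 tag, 200 to 9000 genes and under 5% mitochondrial reads over 13 genes were kept, as in the study's methods. Doublets were those marked by tag, and a second matrix of 1358 columns was not used. Members and gene lists, and the split by *SHH*, were chosen with earlier results of these data known. The text names all members, the 3 largest log2 ratios of each list in each direction among genes with a read in 10% or more of either side's cells, and the 10 genes with the highest rho to the summed members. *APOE*, *NOTO* and *MS4A1* fall outside this rule and were chosen after their values were seen. Odds ratios had 0.5 added to each cell count of the table. Values were computed with Python 3.11.15, numpy 2.4.6, scipy 1.17.1 and pandas 2.3.3. On simulated data for NCs against other cells (9964 genes, 200 changed), the sign was recovered for 100%, and 0.0717% of unchanged genes passed 2-fold. Alternatives varied the limits, NC rule, detection limit, scaling, thinning (50000 reads) and tags. The limits of 16 reads and 25 rpm and the values of single tags were chosen after seeing the data.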

Additional observations from a re-analysis of the deposited data

Results flagged for a closer look

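The log2 ratio of *NR4A3* in NCs to other cells was -0.075 in A951 (67 NCs) and 1.75 in A952 (236 NCs), the 2 tags with enough NCs to compare. The value in A951 was within its 95% counting error of 0.156 and cannot be told from 0. The difference between the tags was not tested, and the tags cannot be told apart from the tissue samples they mark.

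The 42 doublets, which belonged to neither cell group, had 7667 reads of the 8 genes, or 940.6 rpm. That was below the pooled 1613 rpm of other cells and 7124 rpm of NCs. None of them met the *KRT19* and *TBXT* rule, and their median depth was 181166 reads.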

How the results depend on the processing

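Of 128 single-gene log2 ratios over 16 alternatives, 126 were above 0 and 112 were 1 or more. The number of genes 2-fold or more higher in NCs lay between 6 and 8 throughout. The sign reversed for *NR4A1*'s difference in shares (-6.26 points without A952, within its counting error of 11.5, and 12.2 points without A951, with an error of 6.05). It also reversed for *NR4A3*'s log2 ratio (-0.23 without A952, 1.97 without A951, -0.075 in A951 alone, within its counting error of 0.156). *NR4A2*'s difference in shares, -2.02 points and within its counting error of 5.65, changed sign too. That difference was 3.70 thinned, 2.31 from 5 reads, 1.42 from 16 reads, 1.04 without A951 and -9.18 (counting error 11.5) without A952. The cause of these reversals was not tested. The median log2 ratio of 1.88 was 1.67 with *KRT19* and *TBXT* reads added up, 1.83 in A952 alone (chosen after seeing the data), 1.57 when centred, 1.85 from mean log2(rpm + 1), 1.76 as the mean within tags, 1.62 thinned, 1.76 without the 10 most abundant genes, and 1.76 to 2.02 leaving out each tag. The median difference in shares of 7.77 points was 16.5 thinned, 19.9 from 5 reads, 21.3 from 16 reads (chosen after seeing the data), and 2.49 to 10.6 leaving out each tag. The lowest of these, 2.49 without A952, had a median counting error of 11.1 points. In other cells, the median odds ratio of 2.33 was 1.38 thinned, and the median rho of 0.16 was 0.20 as Pearson's r and 0.12 given reads and genes. The difference between tags of 0.72 was 0.56 from mean log2(rpm + 1) and 0.58 thinned. No paired analysis was possible because the 1 library has no replicates, and the within-tag values compare cells of 1 tag, not replicate pairs. With 310 NCs, of which 5 and 2 fall in A953 and A954, values for those tags are imprecise, and no error between animals could be had.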
